A study of Mus musculus with 21 samples.

Results

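Chemokines are small secreted proteins that steer white blood cells, and their receptors are G protein-coupled receptors on the cells that follow them. The genes described here are the 51 protein-coding genes of the deposited count table that belong to this system, of 23713 genes in all. They were taken by name: symbols that start with Ccl, Cxcl, Ccr or Cxcr and a digit, together with Cx3cl1, Cx3cr1, Xcl1, Xcr1, Ackr2, Ackr3 and Ackr4. By role they are 21 CC ligands, 9 CXC ligands, 2 ligands of the CX3C and XC classes, 16 signalling receptors and 3 atypical receptors.

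Bulk RNA sequencing was done on polyA RNA of cells from the tail epidermis of mice with basal cell carcinoma (BCC) and of their controls (Con). The epidermis was separated with trypsin and dispase and the cells were not sorted by any step the labels name, so other epidermal cells can be present. There were 3 models with 3 Con and 4 BCC libraries each, which makes 21 libraries. SmoM2 mice, named for an activated form of the Hedgehog pathway protein Smoothened, were sampled with their controls at 29 days after tumour induction. Gnas-eKO mice, named for the knockout of Gnas, the stimulatory G protein subunit that raises cAMP, were sampled with their controls at 42 days. PKI, which the labels do not spell out, is in this field the short name of a peptide inhibitor of protein kinase A, the kinase that cAMP activates, and these mice were sampled with their controls at 57 days. The driver lines, inducing agent, strain, sex, age and control genotypes are not given in the sources used here. Model, labelled batch and day coincide, so they cannot be told apart between models, while each BCC against Con comparison lies within 1 batch. In SmoM2, the animal names in the file headers begin with other letters in BCC than in Con, a difference the sources used here do not explain. Nothing in the labels says that libraries are separate animals in so many words, so p-values measure the spread between these libraries.

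Chemokine ligands are grouped by the spacing of their first cysteines, and each receptor binds a limited set of them. Keratinocytes, the main cells of the epidermis, are known both to make chemokines at rest, such as Cxcl14 and Ccl27, and to release neutrophil and Langerhans cell attractants such as Cxcl1 and Ccl20 when inflammatory signals reach them. Signalling receptors sit mostly on leukocytes. Atypical receptors bind chemokines without the usual G protein signal and remove them from the surroundings, and epidermal cells can carry them.

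The libraries held 16645858 to 22251132 counts. In the knockout model, Gnas stood at 171 to 177 CPM (CPM is the count divided by the depth of its library, with library sizes scaled by the TMM method) in the 3 Con libraries, and at 116, 89.5, 51.4 and 65.7 CPM in BCC replicates 1 to 4. All 4 were below all 3 Con libraries, but the difference missed the threshold (log2 fold change -1.11 ± 0.25 SE, edgeR adjusted p = 0.0647). Smo, whose activated form names SmoM2, was at 94.2 to 111 CPM in SmoM2 Con and 287 to 317 CPM in SmoM2 BCC. The endogenous gene Pkia, which encodes a form of that inhibitor, was at 3.66 to 4.93 CPM in PKI Con and 2.08 to 3.69 CPM in PKI BCC and was not called, and it does not test for a construct. The cells were labelled tail keratinocytes, and 8 keratinocyte markers including Krt5 and Krt14 summed to 31097 to 75055 CPM in every library. Markers of white blood cells were also present: Ptprc, Cd53, Cd52, Coro1a and Laptm5 summed to 7.89 to 20.5 CPM in PKI Con and 53.8 to 128 CPM in PKI BCC. The same sum was 12.8 to 15.2 CPM in SmoM2 Con, 11.2 to 16.8 CPM in SmoM2 BCC, 17.8 to 18.1 CPM in Gnas-eKO Con and 16.3 to 44 CPM in Gnas-eKO BCC. In bulk RNA, fewer cells of a type and less RNA per cell cannot be told apart, nor can more of either.

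Several of the neutrophil and Langerhans cell attractants share a promoter feature that can be read directly. The kappa B motif, a binding sequence of the inflammatory transcription factor NF-kappa B, was searched on both strands as GGG, then any 2 bases, then TTTCC, in RefSeq promoters of the assembly GRCm38.p6 that run from 250 bases before a gene's start to 50 bases after it. Of the 51 genes, 41 had a promoter in the table (48 windows), and 6 of those windows, each of another gene, held the motif (12.5%). Over all promoters of the table it was found in 535 of 32851 windows (1.63%). Both matches in the Cxcl1 promoter, and both in that of Cxcl2, lie within the last 97 bases before the start and do not overlap each other. 4 promoters are shown from 5′ to 3′ on the strand of the gene up to its start, with the matches in capitals. They are shown because 3 of these genes rose in PKI and the fourth, Cxcl2, is the close neighbour of Cxcl1 and Cxcl3.
Cxcl1 (chr5:90890995-90891244, plus strand): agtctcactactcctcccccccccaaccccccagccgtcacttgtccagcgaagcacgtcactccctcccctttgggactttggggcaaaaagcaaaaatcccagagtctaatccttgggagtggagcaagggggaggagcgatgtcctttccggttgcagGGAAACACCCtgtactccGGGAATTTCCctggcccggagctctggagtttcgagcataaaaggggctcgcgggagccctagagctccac
Cxcl2 (chr5:90903649-90903898, plus strand): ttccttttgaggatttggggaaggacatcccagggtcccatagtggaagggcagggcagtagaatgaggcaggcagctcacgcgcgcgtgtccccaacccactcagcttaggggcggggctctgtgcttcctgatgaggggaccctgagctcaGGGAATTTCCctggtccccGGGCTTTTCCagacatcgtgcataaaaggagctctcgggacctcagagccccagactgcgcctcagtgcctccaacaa
Cxcl3 (chr5:90785851-90786100, plus strand): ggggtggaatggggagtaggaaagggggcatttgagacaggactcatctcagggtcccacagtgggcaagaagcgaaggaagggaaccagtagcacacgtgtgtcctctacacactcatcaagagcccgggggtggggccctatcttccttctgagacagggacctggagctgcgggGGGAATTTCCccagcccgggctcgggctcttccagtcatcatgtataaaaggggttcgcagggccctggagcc
Ccl20 (chr1:83116516-83116765, plus strand): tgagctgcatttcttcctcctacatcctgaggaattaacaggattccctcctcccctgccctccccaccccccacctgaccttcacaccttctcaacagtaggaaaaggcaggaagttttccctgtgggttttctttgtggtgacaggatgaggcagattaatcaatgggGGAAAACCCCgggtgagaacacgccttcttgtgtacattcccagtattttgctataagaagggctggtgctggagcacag

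In Cxcl1, Cxcl2 and Cxcl3, neighbouring genes on chromosome 5, the same 10 letters GGGAATTTCC stand 71, 97 and 73 bases before the start. The Ccl20 match reads on the opposite strand and begins 80 bases before the start. The other 2 genes with a match are shown by the match and 10 bases on each side.
Ccl9: tttgaactttGGAAAGCCCCaagtcacctt
Ccr3: ttccttaagaGGAAATTCCCacattgtttt
A match describes these letters only, and binding was not measured. Of the 6 genes, Cxcl1, Cxcl3 and Ccl20 passed the filter on low counts in PKI and rose there, while Cxcl2, Ccl9 and Ccr3 were below the filter. Of all genes tested in PKI, 18.7% rose. The tested genes passed the filter in part through their higher BCC counts and could hardly be called lower. Nothing about the motif is read from their rise.

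Most of the 51 genes had low counts in these cells. A gene was tested in a model when its count reached about 10, or 0.505 to 0.515 CPM, in at least 3 of the 7 libraries. SmoM2 kept 28 genes, Gnas-eKO 29 and PKI 38. A gene was called when its p in edgeR's quasi-likelihood test, adjusted by Benjamini-Hochberg over all genes tested in the model, was under 0.05. In SmoM2, 6 of the 28 rose and 2 fell, and 8 called is 28.6%, near the 29.7% of all 16370 genes tested that were called (16.2% higher and 13.5% lower). In Gnas-eKO, 0 of the 29 were called, where 1.63% of all 16409 genes were. In PKI, 22 of the 38 rose and 6 fell, and 28 called is 73.7%, where 34.5% of all 16397 genes were called (18.7% higher and 15.8% lower). The median log2 fold change of the tested chemokine genes was 0.27 for SmoM2, beside 0.00 over all genes. It was 0.70 for Gnas-eKO (0.02 over all genes) and 2.32 for PKI (0.00 over all genes).

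The PKI count depends in part on how a gene passes the filter. In PKI, 22 of the 38 genes reached the minimum in fewer than 3 Con libraries, so they could hardly be called lower, and 17 of them rose and 0 fell. Of the 16 genes that reached it in all 3 Con libraries, 5 rose and 6 fell. In SmoM2 the corresponding numbers were 9 genes with 1 risen, and 19 genes with 5 risen and 2 fallen.

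**Figure D1:**
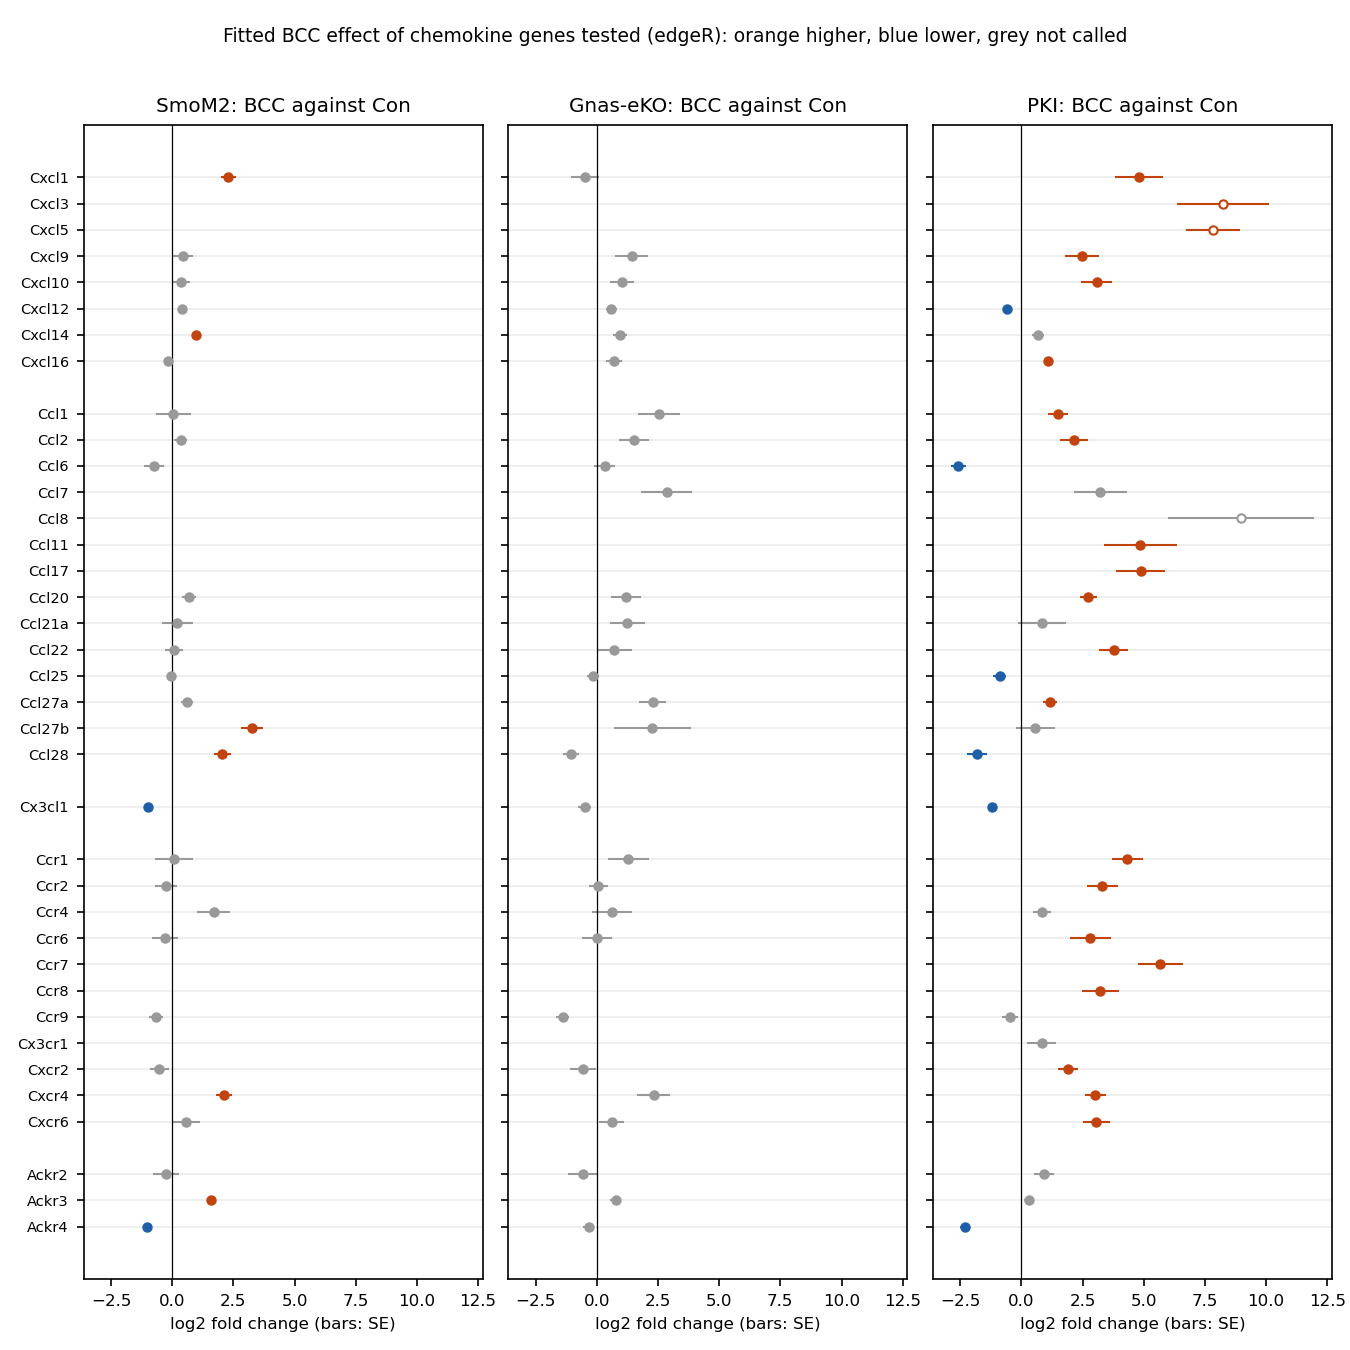
Log2 fold change of BCC against Con (x axis, bars are SE) for the chemokine genes tested (1 is not reported here), with 3 Con and 4 BCC libraries per model. Orange marks genes called higher, blue genes called lower and grey genes not called; open circles are genes with 0 counts in all Con libraries, whose fitted value is no bound. The PKI panel holds 21 orange and 6 blue genes, the SmoM2 panel 6 and 2, and the Gnas-eKO panel 0.

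Levels between genes were compared per kilobase of exon (RPKM). Cxcl14, a chemokine that resting epidermis makes in large amounts, was the most abundant of the 50 genes with a known exon length. The estimated counts of Cxcl14 were off a whole number by 0.005 or more in 21 of 21 libraries, as can happen where reads are shared between features. It averaged 103 ± 6.21 RPKM (SD, n = 3) in SmoM2 Con, 96.5 ± 15.3 in Gnas-eKO Con and 114 ± 31.6 in PKI Con. On this scale it made up 56.2% to 74% of the summed ligand level in the 9 Con libraries. In BCC the share ran from 75.9% to 81.9% for SmoM2, from 58.8% to 72.9% for Gnas-eKO and from 56.1% to 69.5% for PKI. The next in order over the groups were Ackr3 (17.1 to 52.3 RPKM as group means), Cxcl16 (10.7 to 24), Ccl27b (0.778 to 29.3), Ccl27a (3.86 to 23.5), Ackr4 (3.45 to 17.3), Cx3cl1 (4.54 to 11.1) and Cxcl12 (2.35 to 5.98). Neighbours in this order overlap in their range of group means. The lowest group mean of Ackr3 lay above the highest of Cx3cl1 and of Cxcl12, and that of Cxcl16 above the highest of Cxcl12.

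Among the CXC ligands with high levels, Cxcl14 (chr13:56288643-56296551 in GRCm38) was at 188, 178 and 201 CPM in SmoM2 Con and at 325, 355, 430 and 365 CPM in SmoM2 BCC. The groups did not overlap, and the gene rose 1.95-fold (log2 fold change 0.97 ± 0.10 SE, edgeR adjusted p = 8.74e-05). In Gnas-eKO it was at 203, 180 and 147 CPM in Con and at 471, 192, 327 and 373 CPM in BCC. There BCC replicate 2 lay within the Con range, and the gene was not called (0.95 ± 0.28, edgeR adjusted p = 0.119). In PKI it was at 268, 201 and 154 CPM in Con and 463, 343, 270 and 262 CPM in BCC, with overlap and no call (0.69 ± 0.25, edgeR adjusted p = 0.0732).

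Cxcl12, the ligand of Cxcr4 and of Ackr3, stood at 28.9, 27.8 and 29.1 CPM in PKI Con and fell to 22.6, 22.7, 17.3 and 14.4 CPM in PKI BCC. All BCC libraries were below all Con libraries (-0.57 ± 0.16, edgeR adjusted p = 0.0196). The call was lost without any 1 of the 3 Con libraries, at adjusted p up to 0.0617. In SmoM2 the gene was at 26.8, 32.9 and 19.4 CPM in Con and at 30.3 to 40.4 CPM in BCC, and was not called (0.41 ± 0.18, edgeR adjusted p = 0.119). In Gnas-eKO it was at 26.6 to 35.8 CPM in Con and at 59.2, 32.2, 48.1 and 56.2 CPM in BCC (0.60 ± 0.22, edgeR adjusted p = 0.179).

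Cxcl16, a membrane-bound ligand that binds Cxcr6, was at 32.6, 30.6 and 39.2 CPM in PKI Con and rose to 86.9, 68.4, 75 and 59.2 CPM in PKI BCC (1.09 ± 0.14, edgeR adjusted p = 0.000708). In SmoM2 its groups overlapped, at 33.8 to 42.9 CPM in Con and 30.4 to 39.4 CPM in BCC (-0.16 ± 0.12). In Gnas-eKO, BCC replicates 1 to 4 were at 50, 26.5, 82.2 and 52.3 CPM, beside 28.9 to 34.5 CPM in Con (0.70 ± 0.32, edgeR adjusted p = 0.269). The Cxcl16 and Zmynd15 genes share 552 bases of exon on opposite strands. Whether counting used the strand is not stated, so reads of such pairs cannot be told apart here.

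**Figure D2:**
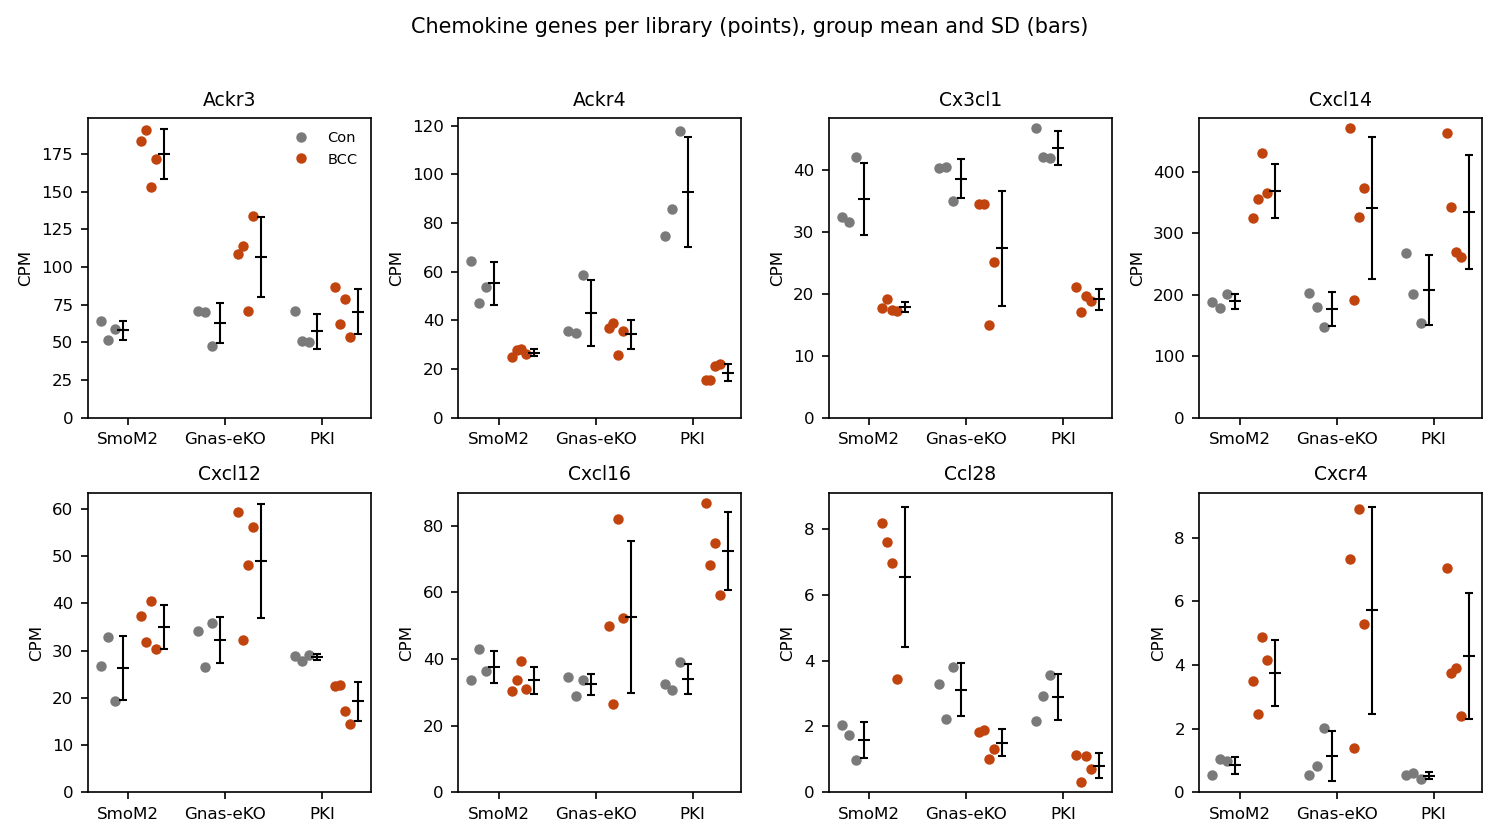
CPM (y axis, from 0) of 8 chemokine genes in each library of the 3 models. Grey points are Con (3 per model), orange points BCC (4 per model), and bars give the group mean and SD. Ackr3 in SmoM2 BCC (153 to 191 CPM) stands above every other library, and Ccl28 lies above its Con group in SmoM2 BCC and below it in Gnas-eKO and PKI BCC.

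The neutrophil-attracting CXC ligands, which bind Cxcr2, included 3 that rose in PKI. Cxcl1 was at 0.444, 0.248 and 0.356 CPM in PKI Con and at 18.6, 15.5, 2.64 and 3.58 CPM in PKI BCC (4.80 ± 0.98, edgeR adjusted p = 0.00938). BCC replicates 1 and 2 were the high ones, but all 4 exceeded every Con library. It also rose in SmoM2, from 0.691, 0.75 and 0.653 CPM in Con to 4.22, 2.11, 3.99 and 3.43 CPM in BCC (2.29 ± 0.31, edgeR adjusted p = 0.000533). In Gnas-eKO it was at 1.92, 1.28 and 3.3 CPM in Con and at 1.21, 0.429, 1.99 and 2.52 CPM in BCC, with overlapping groups (-0.50 ± 0.57, edgeR adjusted p = 0.685).

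Cxcl5 had 0 counts in all 3 PKI Con libraries and 2.69, 0.873, 1.19 and 1.14 CPM in PKI BCC. Against a floor of 3 counts over the Con group it was at least 26-fold higher (edgeR adjusted p = 0.00198). Cxcl3 had 0 counts in PKI Con and 4.48, 2, 0.395 and 0.922 CPM in PKI BCC, at least 33.8-fold higher on the same floor (edgeR adjusted p = 0.0197). Cxcl2 had 0 counts in PKI Con too and 3.95, 0.565, 0.483 and 0.271 CPM in PKI BCC, at least 23.2-fold higher, but it reached the minimum in too few libraries to be tested. BCC replicate 1 was the highest library for Cxcl1, Cxcl2, Cxcl3 and Cxcl5. Without it the bounds were 7.89-fold for Cxcl2, 19-fold for Cxcl3 and 19-fold for Cxcl5. In 1 library the counts of Cxcl2 and Cxcl3 were not whole but their sum was, so reads of these similar genes may be split between them.

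Cxcl9 and Cxcl10, ligands of Cxcr3 that interferon induces, also rose in PKI. Cxcl10 was at 0.197, 0.435 and 0.534 CPM in Con and at 4.72, 1.03, 5.05 and 2.28 CPM in BCC (3.08 ± 0.64, edgeR adjusted p = 0.0064). Cxcl9 was at 0.395, 0.124 and 0.594 CPM in Con and 3.15, 0.565, 3.34 and 1.36 CPM in BCC, where BCC replicate 2 lay within the Con range (2.48 ± 0.71, edgeR adjusted p = 0.0257). The Cxcl9 call was lost in 4 of the 7 fits that left out a library, at adjusted p up to 0.0884. In SmoM2 both genes were below 1 CPM in every library and neither was called. In Gnas-eKO, Cxcl10 was at 0.61 to 0.67 CPM in Con and 1.54, 0.697, 0.752 and 2.28 CPM in BCC, above Con in all 4 (1.03 ± 0.50, edgeR adjusted p = 0.298). Cxcl10 shares 133 bases of exon with Art3 on the opposite strand.

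Among CC ligands, 7 of 14 tested in PKI rose and 3 fell, where 18.7% and 15.8% of all genes did. Ccl22, a dendritic cell product that binds Ccr4, stood at 2.66, 1.12 and 0.534 CPM in PKI Con and 30.6, 24.2, 16.3 and 9.98 CPM in PKI BCC (3.77 ± 0.60, edgeR adjusted p = 0.00336). The groups were well apart, the lowest BCC library standing far above the highest Con library. Ccl17, the other Ccr4 ligand, was at 0.0986, 0 and 0.119 CPM in Con, under the 3-count floor of 0.148 to 0.186 CPM of each library, and at 4.06, 2.05, 2.99 and 0.38 CPM in BCC (4.87 ± 0.99, edgeR adjusted p = 0.00602). In SmoM2, Ccl22 was at 1.29 to 2.99 CPM in Con and 1.54 to 3.34 CPM in BCC (0.07 ± 0.35), and in Gnas-eKO BCC replicate 1 alone was high, at 11.1 CPM beside 1.67 to 2.52 CPM in the other BCC libraries. That library also had the highest sum of Langerhans and dendritic cell markers in Gnas-eKO, at 462 CPM, and the part of those cells was not tested.

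Ccl20, the ligand of Ccr6 and an attractant of Langerhans cells, was at 0.493, 0.559 and 0.594 CPM in PKI Con and at 3.55, 2.31, 5.05 and 3.85 CPM in PKI BCC. It rose 6.7-fold (2.74 ± 0.34, edgeR adjusted p = 0.000583). In SmoM2 its Con libraries were higher, at 1.71, 2.08 and 0.979 CPM, and BCC was at 1.96 to 3.1 CPM (0.69 ± 0.30, edgeR adjusted p = 0.119). In Gnas-eKO, BCC replicates 1, 3 and 4 were at 4.11, 6.02 and 5.76 CPM and replicate 2 at 0.965 CPM, beside 1.27 to 2.93 CPM in Con (1.19 ± 0.60, edgeR adjusted p = 0.32).

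Ccl2, which attracts monocytes through Ccr2, was at 0.789, 1.18 and 1.54 CPM in PKI Con and at 9.75, 5.13, 4.26 and 1.63 CPM in PKI BCC (2.15 ± 0.58, edgeR adjusted p = 0.0209). The call was lost without Con replicate 1 or Con replicate 2, at adjusted p up to 0.0754. Ccl11, an eosinophil attractant, had 3 counts over the PKI Con group and 144 over the BCC group, a ratio of 31.8 with a 95% counting interval of 10.7 to 156 (edgeR adjusted p = 0.0381). Its highest BCC library was replicate 1 at 5.38 CPM, the others lying between 0.38 and 0.835 CPM. Without that library the ratio was 11.1, and the call was lost without any 1 Con library (adjusted p up to 0.11). Ccl1, a ligand of Ccr8, rose from 0.372 to 1.25 CPM in Con to 1.8 to 2.9 CPM in BCC (1.50 ± 0.40, edgeR adjusted p = 0.0169), a call lost without Con replicate 2 at 0.0501. In Gnas-eKO, Ccl1 was at 0.455, 0.391 and 1.32 CPM in Con and 1.07, 1.18, 8.76 and 5.96 CPM in BCC (2.54 ± 0.87, edgeR adjusted p = 0.164). These groups overlapped, and Ccl1 was called there by DESeq2's Wald test (adjusted p = 0.0206) and in the joint fit (0.0407). In SmoM2 it was at 0.109 to 1.73 CPM in Con and 0.539 to 2.16 CPM in BCC (0.05 ± 0.73).

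Ccl27a encodes the skin-homing chemokine that binds Ccr10. In PKI it was at 10.6, 8.7 and 8.2 CPM in Con and 18.5, 14.2, 32.6 and 17.8 CPM in BCC (1.18 ± 0.28, edgeR adjusted p = 0.013). That call was lost without Con replicate 2 or Con replicate 3, at adjusted p up to 0.0536. In Gnas-eKO it was at 17.2, 8.74 and 8.52 CPM in Con, and BCC replicates 1, 3 and 4 were at 65, 90.5 and 52.3 CPM with replicate 2 at 15.4 CPM (2.28 ± 0.55, edgeR adjusted p = 0.0797). The near-identical Ccl27b rose in SmoM2, from 0.512, 0.769 and 0.379 CPM in Con to 5.19, 8.73, 3.68 and 3.05 CPM in BCC (3.24 ± 0.45, edgeR adjusted p = 0.000631). In PKI Con, Ccl27b already stood at 12.3, 2.64 and 9.92 CPM. At a tolerance of 0.005, the counts of Ccl27a were not whole in 21 of 21 libraries and those of Ccl27b in 20, so how reads were divided between the copies is uncertain. Ccr10, the receptor, was at most at 0.395 CPM in any library and was not tested.

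Ccl28, an epithelial chemokine that binds Ccr10 and Ccr3, went in opposite directions between models. In SmoM2 it rose from 2.03, 1.73 and 0.979 CPM in Con to 8.17, 7.6, 6.95 and 3.43 CPM in BCC (2.04 ± 0.35, edgeR adjusted p = 0.00223). In PKI it fell from 2.17, 2.92 and 3.56 CPM in Con to 1.12, 0.308, 1.1 and 0.705 CPM in BCC (-1.82 ± 0.41, edgeR adjusted p = 0.00808). In Gnas-eKO all BCC libraries, at 1.82, 1.88, 1.02 and 1.31 CPM, were below all Con libraries, at 3.29, 2.23 and 3.81 CPM, without a call (-1.04 ± 0.33, edgeR adjusted p = 0.138).

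The other CC ligands that fell in PKI were Ccl6 and Ccl25. Ccl6, a ligand of Ccr1, was at 6.31, 8.75 and 7.6 CPM in Con and at 1.07, 2.05, 0.835 and 1.08 CPM in BCC, 5.99-fold lower (-2.58 ± 0.30, edgeR adjusted p = 0.000438). In SmoM2 it was at 2.49 to 6.8 CPM in Con and 1.91 to 4.22 CPM in BCC (-0.74 ± 0.40), and in Gnas-eKO at 1.87 to 4.01 and 1.74 to 5.51 CPM (0.32 ± 0.42), without a call in either. Ccl25, the ligand of Ccr9, was at 4.78 to 7.72 CPM in PKI Con and at 2.08 to 4.17 CPM in PKI BCC (-0.89 ± 0.28, edgeR adjusted p = 0.035). Its call was lost in 4 of the 7 fits that left out a library, at adjusted p up to 0.143, and it shares 204 bases of exon with Elavl1 on the opposite strand.

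Cx3cl1, a membrane-bound chemokine whose receptor is Cx3cr1, fell in both SmoM2 and PKI. In SmoM2 it was at 32.4, 31.5 and 42 CPM in Con and at 17.7, 19.1, 17.4 and 17.2 CPM in BCC (-0.99 ± 0.11, edgeR adjusted p = 0.000182). In PKI it was at 46.7, 42 and 41.9 CPM in Con and at 21, 17, 19.6 and 18.8 CPM in BCC (-1.19 ± 0.09, edgeR adjusted p = 8.66e-05). The BCC libraries of both models lay close together. In Gnas-eKO, BCC replicates 1 and 2 were at 34.5 CPM each and replicates 3 and 4 at 15 and 25.1 CPM, beside 34.9 to 40.4 CPM in Con (-0.50 ± 0.26, edgeR adjusted p = 0.344). Cx3cr1 was tested in PKI alone and was at 0.592, 0.559 and 0.119 CPM in Con and 0.411 to 1.19 CPM in BCC (0.84 ± 0.59, edgeR adjusted p = 0.305).

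Of the signalling receptors, 9 of 12 tested in PKI rose and 0 fell, and 1 of 8 rose in SmoM2, where 18.7% and 16.2% of all genes rose. Cxcr4, the Cxcl12 receptor found on many leukocytes and on some epithelial and endothelial cells, rose in both. In SmoM2 it was at 0.553, 1.04 and 0.979 CPM in Con and at 3.49, 2.45, 4.89 and 4.15 CPM in BCC (2.13 ± 0.33, edgeR adjusted p = 0.00117). In PKI it was at 0.543, 0.621 and 0.415 CPM in Con and at 7.06, 3.75, 3.91 and 2.39 CPM in BCC (3.01 ± 0.43, edgeR adjusted p = 0.00104). In Gnas-eKO, BCC replicates 1, 3 and 4 were at 7.33, 8.92 and 5.28 CPM and replicate 2 at 1.39 CPM, within the Con range of 0.556 to 2.03 CPM (2.32 ± 0.67, edgeR adjusted p = 0.116).

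The neutrophil receptor Cxcr2 was at 2.32, 3.23 and 1.01 CPM in PKI Con and rose to 11, 10.6, 5.67 and 5.53 CPM in PKI BCC (1.91 ± 0.42, edgeR adjusted p = 0.00887). Cxcr6, the Cxcl16 receptor of T cell subsets, was at 1.23, 1.12 and 0.356 CPM in Con and 11.7, 8.16, 7.91 and 2.87 CPM in BCC (3.06 ± 0.56, edgeR adjusted p = 0.00423). Ccr2, the monocyte receptor for Ccl2, was at 1.04, 0.0621 and 0.594 CPM in Con and 8.68, 4.62, 6.76 and 3.36 CPM in BCC (3.31 ± 0.62, edgeR adjusted p = 0.0044). In SmoM2 and Gnas-eKO the Con and BCC ranges of these 3 receptors overlapped and none was called.

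Lower still in PKI Con were Ccr1, Ccr6, Ccr7 and Ccr8. Ccr1, a receptor of monocytes and neutrophils, went from 0.197, 0 and 0.0594 CPM to 3, 1.44, 1.63 and 1.9 CPM (4.33 ± 0.64, edgeR adjusted p = 0.00124). Ccr7, which guides dendritic cells to lymph nodes, had 1 count over PKI Con and 104 over PKI BCC, a ratio of 68.9 with a 95% counting interval of 12.1 to 2746 (edgeR adjusted p = 0.00198). Such intervals cover counting error only.

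Ccr8, a receptor of skin T cells, was at 0.247, 0 and 0.0594 CPM in PKI Con and 1.78, 1.08, 0.922 and 0.596 CPM in BCC (3.23 ± 0.74, edgeR adjusted p = 0.00878). Ccr6, the Ccl20 receptor, was at 0.937, 0.0621 and 0 CPM in Con and at 2.89, 3.13, 2.68 and 1.52 CPM in BCC (2.82 ± 0.83, edgeR adjusted p = 0.0311), and its call was lost in 5 of the 7 fits that left out a library, at adjusted p up to 0.0914. Ccr4, the receptor of Ccl17 and Ccl22, was at 3.9, 2.86 and 1.66 CPM in PKI Con and 2.71 to 7.7 CPM in BCC without a call (0.84 ± 0.38, edgeR adjusted p = 0.122). In SmoM2, Ccr4 was at 0.553, 1.33 and 3.86 CPM in Con and 8.22, 8.92, 3.71 and 3.58 CPM in BCC (1.69 ± 0.66, edgeR adjusted p = 0.0997).

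**Figure D3:**
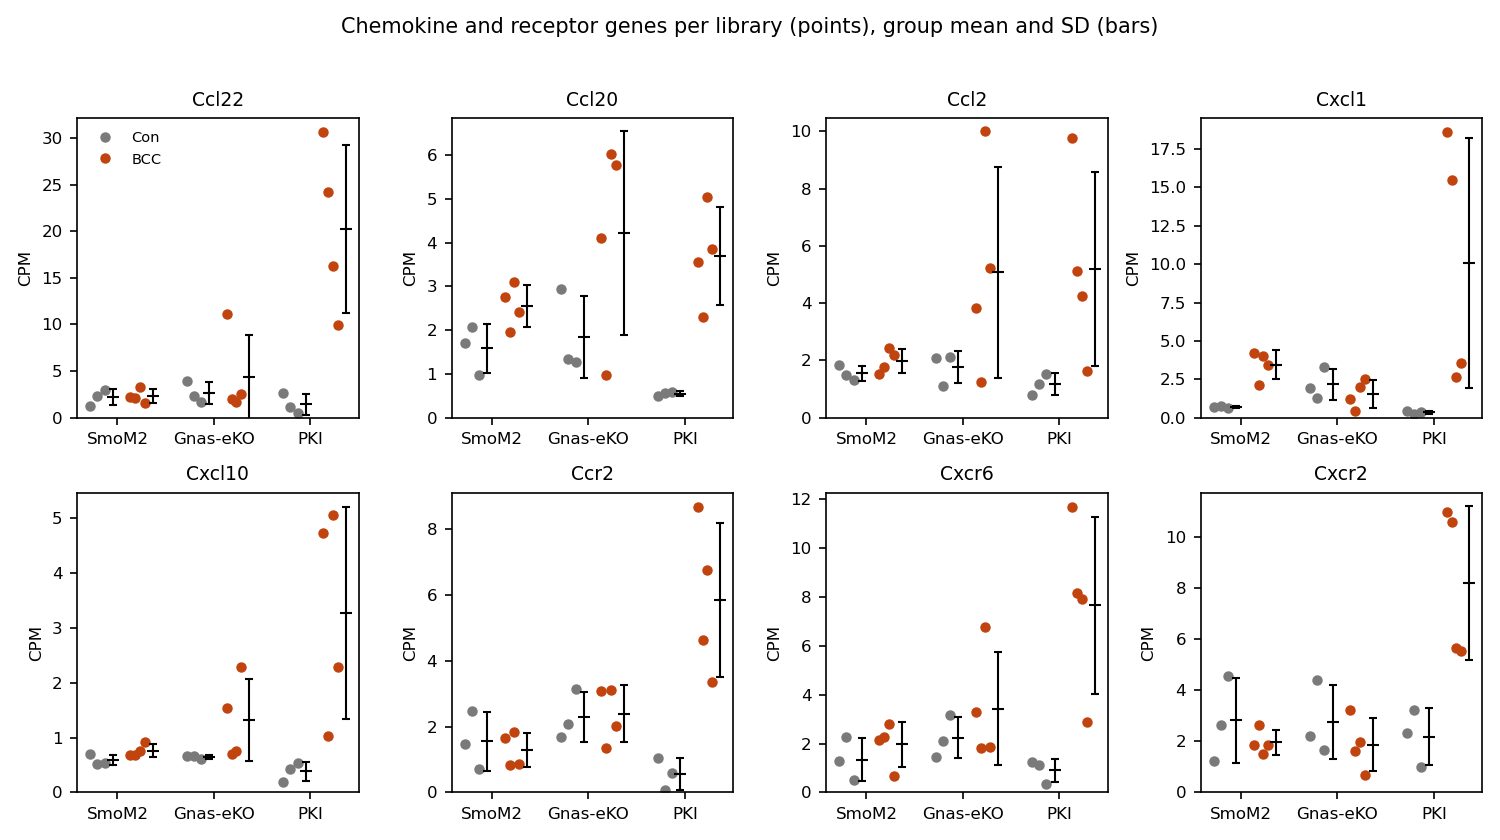
CPM (y axis, from 0) of the ligands Ccl22, Ccl20, Ccl2, Cxcl1 and Cxcl10 and the receptors Ccr2, Cxcr6 and Cxcr2 in each library. Grey points are Con (3 per model), orange points BCC (4 per model), and bars give the group mean and SD. In PKI every BCC library lies above every Con library for all 8 genes, while in SmoM2 the groups overlap for all but Cxcl1. All 8 are genes called higher in PKI, so these counts do not compare the models. Over all genes tested, the groups did not overlap for 43.2% in PKI and 38.4% in SmoM2.

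The atypical receptors behaved differently from one another. Ackr3, which removes Cxcl12, was at 63.9, 51.5 and 59.1 CPM in SmoM2 Con and rose to 184, 191, 153 and 172 CPM in SmoM2 BCC (1.59 ± 0.10, edgeR adjusted p = 5.43e-06). In PKI its groups overlapped, at 50.2 to 70.8 CPM in Con and 53.8 to 86.5 CPM in BCC (0.30 ± 0.19, edgeR adjusted p = 0.26). In Gnas-eKO, Con was at 71.1, 70.4 and 47.4 CPM and BCC at 109, 114, 70.6 and 134 CPM (0.77 ± 0.23, edgeR adjusted p = 0.126).

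Ackr4, which removes Ccl19, Ccl21 and Ccl25, fell in SmoM2 and further in PKI. In SmoM2 it was at 64.6, 47.3 and 53.6 CPM in Con and at 24.8, 27.8, 28.4 and 26.2 CPM in BCC (-1.04 ± 0.11, edgeR adjusted p = 0.000103). In PKI it was at 74.6, 85.9 and 118 CPM in Con and at 15.5, 15.7, 21.2 and 21.9 CPM in BCC, 5-fold lower (-2.32 ± 0.19, edgeR adjusted p = 0.000141). In Gnas-eKO the ranges overlapped, at 34.9 to 58.7 CPM in Con and 25.7 to 39.1 CPM in BCC (-0.33 ± 0.22, edgeR adjusted p = 0.456). Ackr4 shares 479 bases of exon with Acad11 on the opposite strand. Ackr2, a scavenger of inflammatory CC chemokines, was at most at 1.38 CPM in any library, at 0.297 to 0.592 CPM in PKI Con and 0.667 to 0.976 CPM in PKI BCC, and was called in none of the 3 models (edgeR adjusted p = 0.11 in PKI).

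Of the genes called in SmoM2, Ackr4, Ccl28, Cx3cl1, Cxcl1 and Cxcr4 were also called in PKI, all in the same direction except Ccl28. Ackr3, Ccl27b and Cxcl14 were called in SmoM2 and not in PKI. Of the PKI minus SmoM2 differences, that of Ackr3 passed the test (-1.29 ± 0.23, edgeR adjusted p = 0.00158), while those of Ccl27b (-2.66 ± 1.08, adjusted p = 0.0926) and Cxcl14 (-0.28 ± 0.29, adjusted p = 0.519) did not. Cxcl14 was called in PKI by DESeq2's Wald test (adjusted p = 0.0103) and in the joint fit (adjusted p = 0.0477). With replicate number as a block, edgeR called both Cxcl14 and Ackr3 in PKI (adjusted p = 0.000165 and 0.014). In all, 31 of the 51 genes were called in at least 1 model, or 31 of the 38 tested in any, beside 49.2% of all genes tested in any.

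Differences between models were tested as the BCC effect of one model minus that of another, on 14 libraries. Between PKI and SmoM2, 16 of 38 genes differed (42.1%, where 24.9% of all 17261 genes did), 11 with the higher value in PKI and 5 with the lower. The filter on low counts also keeps genes high in PKI BCC alone, such as Cxcl5 and Ccr8, so nothing is read from this share. Of the 11 higher, all but Ccl22, Cxcl16 and Cxcr2 reached the minimum in fewer than 3 PKI Con libraries. The 5 lower were Ackr3 (-1.29 ± 0.23 SE, edgeR adjusted p = 0.00158), Ackr4 (-1.28 ± 0.23), Ccl28 (-3.85 ± 0.56, adjusted p = 0.000292), Ccl6 (-1.84 ± 0.53) and Cxcl12 (-0.98 ± 0.25). The 11 higher included Cxcl16 (1.25 ± 0.19, adjusted p = 0.000467), Ccl22 (3.70 ± 0.71), Ccl20 (2.06 ± 0.45), Ccr2 (3.56 ± 0.81), Ccr1 (4.28 ± 1.15), Cxcl10 (2.72 ± 0.73) and Cxcr2 (2.42 ± 0.62). The Cxcl1 rise did not differ between the 2 models at the threshold (2.51 ± 1.03, adjusted p = 0.0937), nor did that of Cxcr4 (0.88 ± 0.56, adjusted p = 0.27) or the fall of Cx3cl1 (-0.20 ± 0.15, adjusted p = 0.352). The calls of Cxcr6, at 2.50 ± 0.85, and Ccr6, at 3.13 ± 1.06, were lost in 11 and 10 of the 14 fits that left out a library. That of Cxcl5 was lost without either of 2 SmoM2 Con libraries (adjusted p up to 0.0739), and that of Ccl6 without PKI Con replicate 2 (0.0503).

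Between PKI and Gnas-eKO, 7 of 40 genes differed (17.5%, where 9.07% of all 17254 genes did). They were Ackr4 (-1.99 ± 0.31, edgeR adjusted p = 0.00279), Ccl6 (-2.90 ± 0.55, adjusted p = 0.00747) and Cxcl12 (-1.17 ± 0.29) with the lower value in PKI, and Cxcl1 (5.31 ± 1.08, adjusted p = 0.0113), Ccr2 (3.27 ± 0.75), Cxcr2 (2.47 ± 0.72) and Cxcl5 with the higher. The calls of Cxcr2, Cxcl5 and Cxcl12 were lost in 10, 11 and 2 of the 14 fits that left out a library, at adjusted p up to 0.143, 0.122 and 0.0723. Between Gnas-eKO and SmoM2, Ccl28 was the 1 gene of 29 that differed (3.45%, where 0.175% of all 17151 genes did), at -3.08 ± 0.49 (edgeR adjusted p = 0.0226). This call was lost in 7 of the 14 fits that left out a library, at adjusted p up to 0.0814. Any pair of these 3 comparisons shares the libraries of 1 model, and model, batch and day cannot be told apart in any of them. The share for PKI against Gnas-eKO passes through the same kind of filter, and nothing is read from it.

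Gnas-eKO gave 0 calls among 29 genes in edgeR, while 10 of them, 8 higher, had an unadjusted p under 0.05, where 19.6% of all genes did. DESeq2's Wald test called 7 of the 29 in the same libraries, 6 higher and 1 lower, where it called 9.35% of all genes. The 7 were Ccl27a, Ccr9, Cxcr4, Cxcl14, Ccl1, Ackr3 and Ccl7. Limma on the authors' normalized values called 1, beside 1.52% of all genes. A joint fit of all 21 libraries called 7 of the 40 it tested, beside 15% of all genes. The count turned on BCC replicate 2. Without it, edgeR called 9 of 28 genes, 8 higher and 1 lower, beside 11.8% of all genes. Among them were Ccl27a (2.59, edgeR adjusted p = 0.00317), Cxcl14 (1.15, adjusted p = 0.00852), Cxcr4 (2.64, adjusted p = 0.0117), Cxcl12 (0.76, adjusted p = 0.0188), Cxcl16 (0.92, adjusted p = 0.0264), Ccl2 (1.83, adjusted p = 0.0332) and Ccl20 (1.51, adjusted p = 0.0427). In that library Gnas was at 89.5 CPM, below all Con libraries, and the fibroblast markers, most of the sum being Dcn, summed to 579 CPM, the highest of the 4 BCC libraries. Its T cell marker sum, most of it Thy1, was 102 CPM, beside 32.3 to 45 CPM in the other BCC libraries and 132 to 140 CPM in Con. What sets it apart was not tested.

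**Figure D4:**
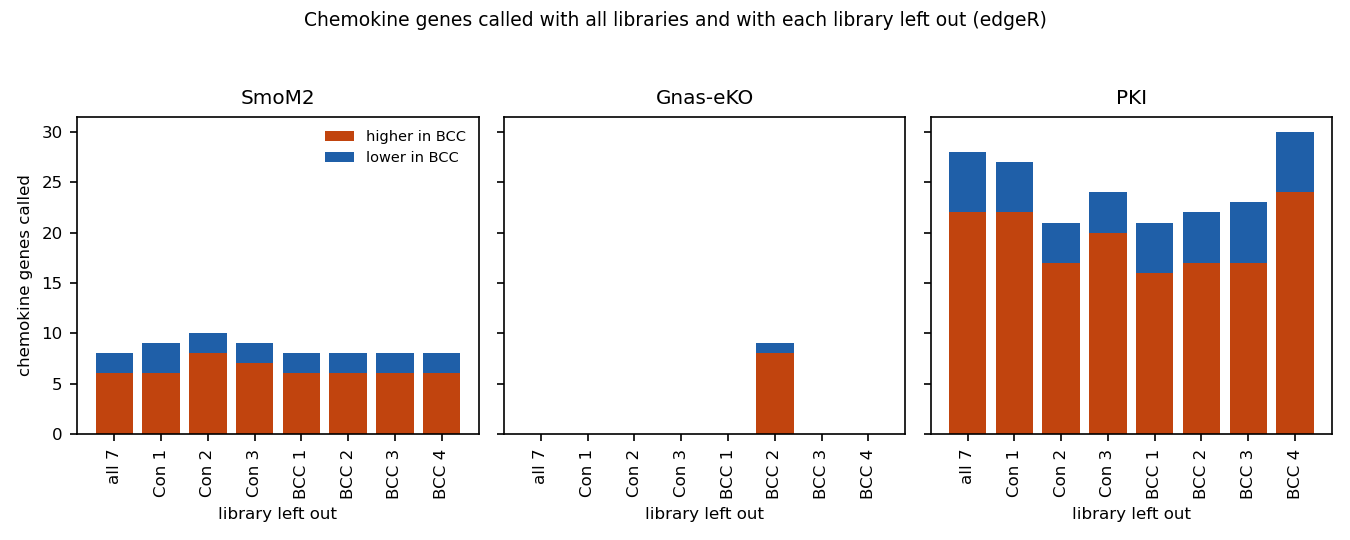
Number of chemokine genes called in edgeR (y axis) with all 7 libraries of a model and with each library left out in turn. Orange is higher in BCC and blue lower. SmoM2 stays between 8 and 10 and PKI between 21 and 30, while Gnas-eKO goes from 0 to 9 when BCC replicate 2 is left out.

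In PKI, 20 of the 28 called genes were called in every one of the 7 fits that left out a library, and in SmoM2 all 8 were. With all libraries kept, the SmoM2 call of Ccl27b was lost in the joint fit (adjusted p = 0.0635). In PKI, the calls of Ccl1 and Ccl27a were lost in the joint fit (adjusted p = 0.17 and 0.06), and that of Ccl11 was lost without a filter and in limma (adjusted p = 0.0664 and 0.126). The Con and BCC values of 30 of 38 genes in PKI did not overlap, 24 above and 6 below (78.9%, where 43.2% of all genes tested did not). The corresponding share was 32.1% in SmoM2, where 38.4% of all genes did not overlap, and 13.8% in Gnas-eKO, where 19.5% did not. These shares pass through the same filter on low counts as the calls, and nothing is read from them.

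Markers of leukocytes moved with the PKI rise. All 5 general leukocyte markers rose in PKI, Ptprc from 3.16 ± 1.18 CPM (SD, n = 3) to 15.3 ± 3.7 (SD, n = 4), and 0 of 5 were called in SmoM2 or Gnas-eKO. For the counts of markers, the shares over all genes tested were 18.7% risen in PKI, 16.2% risen in SmoM2 and 1.63% called in Gnas-eKO. Of 10 Langerhans and dendritic cell markers, all rose in PKI, and their sum went from 52.9 to 181 CPM in Con to 447 to 948 CPM in BCC. Ccl22 and Ccr7 are on this list as well as among the genes described here, and Flt3 had 0 counts in all PKI Con libraries and 121 over the PKI BCC libraries. Cd207, the Langerhans cell lectin, was at 4.01 ± 2.22 CPM in Con and 15.7 ± 2.16 in BCC. Of 10 T cell markers, 6 of 9 tested rose (Cd4 from 0.0493 ± 0.0854 to 6.44 ± 2.86 CPM), and of 10 macrophage and monocyte markers 6 of 8 tested rose (C1qa from 0.311 ± 0.162 to 4.02 ± 1.93 CPM). Fcgr1, a macrophage marker, had 0 counts in the Con libraries of every model and 6 in all over the 4 PKI BCC libraries, and was not tested. In SmoM2, 2 of 4 macrophage and monocyte markers rose, and of 6 T cell markers 2 rose and 1 fell. The T cell sum includes Thy1, which dominates it, at 121 ± 15.4 CPM in SmoM2 Con and 51.7 ± 6.68 in SmoM2 BCC. Of the neutrophil markers present, Cxcr2 was the only one tested. Csf3r and Trem1 had 0 counts in all PKI Con libraries and 38 and 7 in all over the PKI BCC libraries, while Camp, a neutrophil granule peptide, was at 0.607 ± 0.841 CPM in PKI Con and 0.0889 ± 0.178 CPM in PKI BCC. The part of these cells in the chemokine changes was not tested.

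**Figure D5:**
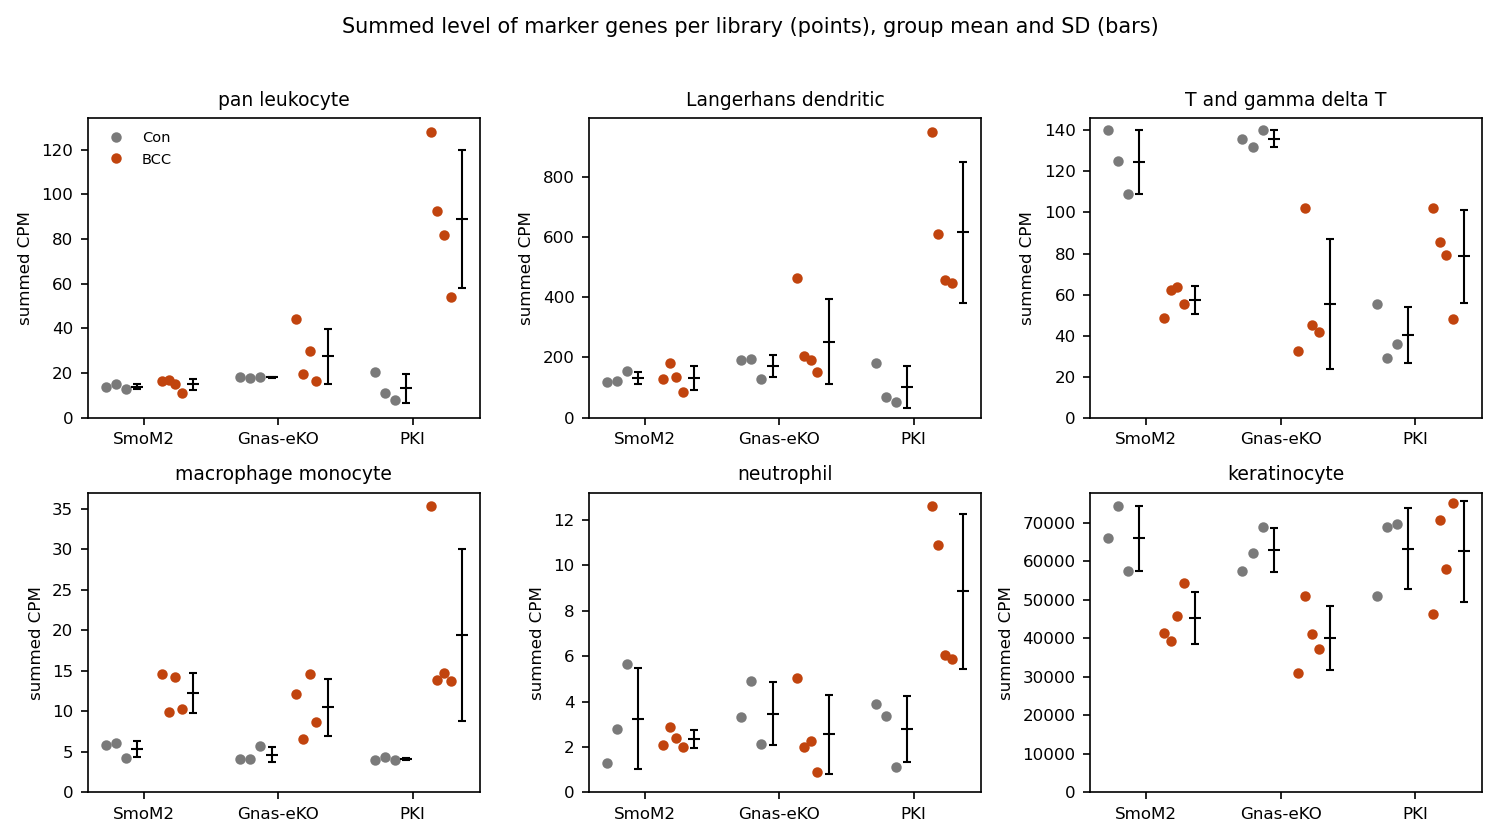
Summed CPM (y axis, from 0) of 6 marker lists in each library. Grey points are Con (3 per model), orange points BCC (4 per model), and bars give the group mean and SD. The general leukocyte and Langerhans or dendritic cell sums are higher in all PKI BCC libraries than in any PKI Con library, and overlap between Con and BCC in SmoM2.

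Markers of other skin cells were seen too. Dcn, a fibroblast gene, rose from 21.1 ± 7.99 to 446 ± 71.8 CPM in SmoM2 and from 18.2 ± 8.12 to 87.4 ± 25.5 CPM in PKI. In Gnas-eKO it was at 14.7 ± 4.08 CPM in Con and 247 ± 230 in BCC (edgeR adjusted p = 0.0485), a call lost in 5 of the 7 fits that left out a library, at adjusted p up to 0.223. The fibroblast sum was 393 to 533 CPM in SmoM2 BCC, beside 17.3 to 40 CPM in SmoM2 Con. Most of this sum was Dcn. Of 6 fibroblast markers, 2 rose in SmoM2 (Dcn and Col1a2), 1 in Gnas-eKO and 3 in PKI, and in SmoM2 the log2 changes of Col1a1 (0.36), Col3a1 (-0.07) and Pdgfra (0.73) did not pass the test. Over all genes tested, 16.2% rose in SmoM2 and 18.7% in PKI, and 1.63% were called in Gnas-eKO. The relation of the sum to the SmoM2 chemokine changes was not tested. Endothelial, B cell, mast cell and muscle marker sums stayed under 10 CPM in every library, and of these 4 lists only 1 endothelial gene and no other was called in any model.

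Other genes of the chemokine system were read from the same fits. In PKI, 10 of 15 tested rose and 1 fell, and in SmoM2 5 of 14 rose and 4 fell. Dpp4, a protease that trims chemokines, rose in SmoM2 (21.6 ± 2.53 to 63.6 ± 5.47 CPM, log2 fold change 1.56) and in PKI (16.4 ± 2.16 to 71.4 ± 7.57 CPM, 2.12). Elmo1, which links chemokine receptors to cell movement, rose in SmoM2 (1.57 ± 0.21) and PKI (1.39 ± 0.30). Adam10, a sheddase of Cx3cl1 and Cxcl16, rose in PKI (0.72 ± 0.08, edgeR adjusted p = 0.000281), and Adam17, another sheddase, fell in both (-0.39 ± 0.10 in SmoM2, -0.24 ± 0.06 in PKI). Gnai2, the inhibitory G protein subunit through which these receptors signal, rose in SmoM2 (0.36 ± 0.07) and PKI (0.52 ± 0.09), and so did Arrb2, an arrestin that takes receptors off the surface (0.38 ± 0.12 and 0.51 ± 0.12). Beside Adam17, the genes that fell in SmoM2 were Arrb1, another arrestin (from 93.8 ± 1.97 to 54.6 ± 6.91 CPM, -0.78 ± 0.10), the receptor kinase gene Grk2 (-0.53 ± 0.09) and Gnai3 (-0.29 ± 0.09), which in PKI were at -0.35, -0.11 and 0.04 without a call. These 3 were named after their values were seen. In Gnas-eKO 0 of 14 were called, beside 1.63% of all genes, and Dpp4 was at 24.7 ± 6.31 and 63 ± 18 CPM (1.35 ± 0.27, edgeR adjusted p = 0.0507).

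Cytokines and transcription factors known to induce chemokines were read too: 12 of 15 tested rose in PKI and 0 fell, 6 of 14 rose in SmoM2 and 1 fell, and 0 of 14 were called in Gnas-eKO. Of all genes tested, 18.7% rose and 15.8% fell in PKI, 16.2% rose and 13.5% fell in SmoM2, and 1.63% were called in Gnas-eKO. Tnf rose in PKI (4.07 ± 0.42, edgeR adjusted p = 0.000249) and in SmoM2 (1.82 ± 0.51, adjusted p = 0.0245). Irf1, an interferon-response transcription factor, rose in SmoM2 (1.08 ± 0.25) and PKI (1.53 ± 0.35). Tnfaip3, a gene that NF-kappa B induces and that restrains it, rose in SmoM2 (1.22 ± 0.15) and PKI (1.40 ± 0.26), and the NF-kappa B subunit genes Nfkb2 (0.46 ± 0.09 and 1.24 ± 0.18) and Relb (0.73 ± 0.14 and 0.76 ± 0.11) rose in both. Nfkbiz, an NF-kappa B cofactor, rose in SmoM2 (1.24 ± 0.24) and PKI (0.95 ± 0.30). The 1 gene that fell was Il33, named after its values were seen, in SmoM2 (-0.70 ± 0.22). The relation of these genes to the chemokine changes was not tested.

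Of the other 18 genes edgeR called 0 in SmoM2, Gnas-eKO and PKI, of 3, 4 and 5 tested, and 2 in each model had an unadjusted p under 0.05. With all libraries kept, other tools called some of them. DESeq2's Wald test called Ccr4 in SmoM2 (adjusted p = 0.00959), Ccl7 and Ccr9 in Gnas-eKO (0.0492 and 0.00122) and Ccl7 and Ccl8 in PKI (0.00128 and 0.000275). Limma called Ccr9 in Gnas-eKO (adjusted p = 0.0429), and the joint fit called Ccr9 there (0.00313) and Ccl7, Ccl8 and Cxcl2 in PKI (0.0238, 0.0071 and 0.0118). Without a filter edgeR called Ccl9, Cxcr3 and Xcr1 in PKI (adjusted p = 0.00477, 0.0355 and 0.0248). Ccl7 was tested in Gnas-eKO (0.205 ± 0.15 CPM in Con and 1.54 ± 1.54 in BCC) and PKI (0.272 ± 0.114 and 2.55 ± 3.14 CPM), with adjusted p of 0.184 and 0.054 in edgeR. Ccl8 had 0 counts in PKI Con and 9.29, 0.924, 2.81 and 0.163 CPM in PKI BCC, at least 59.2-fold higher, or 24.9-fold without BCC replicate 1, but was not called in edgeR (adjusted p = 0.0817). Ccr9, which overlaps several other genes on both strands, stood at 2.54 to 3.51 CPM in Gnas-eKO Con and 0.948 to 1.38 CPM in BCC (-1.40 ± 0.28, edgeR adjusted p = 0.0507). Ccl21a, Ccl21b and Ccl21d are near-identical copies whose counts were mostly not whole, and Ccl21a reached 11.9 CPM in 1 Gnas-eKO BCC library. Ccl21a was called in PKI without Con replicate 1 (edgeR adjusted p = 0.0262). Ccl9 was called in PKI by edgeR without Con replicate 1, 2 or 3 (adjusted p = 0.0327, 0.0289 and 0.0367). Without BCC replicate 4, edgeR called Ccl7, Ccl8 and Ccr4 in PKI (0.0242, 0.0393 and 0.0404). It called Ccr4 in SmoM2 without Con replicate 3 (0.0144), and Ccl7 and Ccr9 in Gnas-eKO without BCC replicate 2 (0.0399 and 0.0175). Ccl3, Ccl5, Ccl9, Ccl19, Ccl24, Ccr3, Ccr10, Cxcr3, Xcl1 and Xcr1 stayed under 2 CPM in every library and did not pass the filter on low counts with all libraries kept.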

How the data were processed

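PolyA RNA of 21 libraries was sequenced from a stranded ligation preparation, per the labels' protocols. Per the submitters' processing notes, bcl2fastq 2.20, cutadapt 1.18, STAR 2.7.0f and Partek were used with the build mm10, and whether counting used the strand is not given in the sources used here. The deposited table holds estimated counts per gene, of which 25.2% were off a whole number by 0.005 or more, and no gene in it sums to under 10. A second table deposited by the authors holds a normalized signal, equal to these counts times a factor per library plus 0.001. Libraries were mapped to groups by the labels, and every pair of the same group differed by more than sampling noise (the lowest chi-square was 8.33 times its degrees of freedom).

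Counts were rounded and tested per model with edgeR 4.0.16 in R 4.3.3: filterByExpr, TMM, the robust quasi-likelihood test and Benjamini-Hochberg adjustment over all genes. SE is the log2 fold change over the square root of F. Differences between models were tested on 14 libraries. RPKM used exon lengths of GENCODE release M21. Alternatives were DESeq2 1.42.0 size factors and Wald test, no filter, a replicate block, unrounded counts, limma 3.58.1 on log2 of the authors' values plus 1, each library left out, and 1 joint fit. On data simulated for the PKI comparison, 55.7% of 2-fold and 94.8% of 4-fold changes were recovered over 16397 genes. For SmoM2 these shares were 54.1% and 85.4%, and for Gnas-eKO 50% and 84.9%. For the differences between models, 2-fold and 4-fold recovery was 54.5% and 77% for PKI minus SmoM2 (17261 genes), 22.2% and 70.7% for PKI minus Gnas-eKO (17254 genes), and 21% and 72.7% for Gnas-eKO minus SmoM2 (17151 genes). The simulation changed few genes, picked at random, and gave all libraries of a comparison the same spread per gene. The real fits mostly called many genes, most chemokine genes had low counts, and Gnas-eKO BCC replicate 2 stood apart. These shares therefore do not measure recovery for the genes described here.

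The members and lists were chosen with earlier results of these data known. Named with statistics were the members called in a model or in a difference between models and a fixed set of main ligands and receptors. Of each other list at most 6 genes were named, those called in most models and then those with the smallest adjusted p. Beyond this rule, Il33, Arrb1, Grk2, Gnai3, Rgs1, Ccrl2, Dock2, Cd74 and Camp were named after their values were seen. So were the markers with 0 counts in all PKI Con libraries (Flt3, Fcgr1, Csf3r and Trem1). For 1 gene, included in the counts, values are not reported here.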

Additional observations from a re-analysis of the deposited data

Results flagged for a closer look

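In 4 of 83 groups of 4 BCC libraries, 1 library stood apart from the rest by Dixon's ratio (above its 95% critical value), and chance alone gives 4.15 such groups at 1 in 20. Ackr2 was at 0.859 CPM in Gnas-eKO BCC replicate 3. Ccl27b was at 5.79 CPM in the same library. Ccl22 was at 11.1 CPM in Gnas-eKO BCC replicate 1, and Ccl11 was at 5.38 CPM in PKI BCC replicate 1.

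The BCC effect differed between models by a test of the difference itself in 24 cases, with values on the log2 scale from edgeR. In PKI it was higher than in SmoM2 by 2.06 for Ccl20, 3.70 for Ccl22, 4.28 for Ccr1, 3.56 for Ccr2, 3.13 for Ccr6 and 5.20 for Ccr8. It was also higher there by 2.72 for Cxcl10, 1.25 for Cxcl16, 8.32 for Cxcl5, 2.42 for Cxcr2 and 2.50 for Cxcr6. The PKI effect minus the SmoM2 effect was -1.29 for Ackr3, -1.28 for Ackr4, -3.85 for Ccl28, -1.84 for Ccl6 and -0.98 for Cxcl12. The PKI effect minus the Gnas-eKO effect was -1.99 for Ackr4, -2.90 for Ccl6, -1.17 for Cxcl12, 3.27 for Ccr2, 5.31 for Cxcl1, 7.33 for Cxcl5 and 2.47 for Cxcr2. The Gnas-eKO effect minus the SmoM2 effect was -3.08 for Ccl28. The values for Cxcl5, which had 0 counts in PKI Con, depend on the prior count of the fit and are no bounds. Those for Ccr8 (SE 1.26) and Ccr1 (SE 1.15) against SmoM2 also rest on few counts, at 6 and 5 over PKI Con. Ccr8 had 9 counts over SmoM2 Con and 3 over SmoM2 BCC and was not tested in SmoM2 alone.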

How the results depend on the processing

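DESeq2 size factors and unrounded counts left 107 of 107 values for single genes with their direction and side of the threshold. Over the fits that left out 1 library, 790 of 898 did so, 78 lost a call, 11 gained one and 19 changed sign, none of the last being called. The Wald test left 100 of 107, with 6 calls gained and 1 sign changed. Without a filter it was 103, with 3 lost and 1 sign changed, and with limma 104, with 1 lost and 2 signs changed. With the block it was 98, with 5 lost, 3 gained and 1 sign changed, and in the joint fit 73 of 83, with 3 lost, 6 gained and 1 sign changed. For the differences between models only called genes enter these values, so calls gained there are not counted. With 1 library left out, the number of chemokine genes called ranged from 8 to 10 in SmoM2, 0 to 9 in Gnas-eKO, 21 to 30 in PKI, 13 to 20 for PKI against SmoM2, 4 to 9 for PKI against Gnas-eKO and 0 to 1 for Gnas-eKO against SmoM2. Of all genes these fits called 21.5% to 27.5%, 0% to 11.8%, 24.1% to 33.7%, 19.2% to 25.8%, 3.79% to 14.7% and 0.0795% to 0.462%, in the same order. In Gnas-eKO, DESeq2's Wald test and the joint fit each called 7, and limma called 1. For Gnas-eKO against SmoM2 the Wald test called 2 and the replicate block 0, beside 1.24% and 0.122% of all genes. For PKI against SmoM2, where edgeR called 16, the Wald test called 23, limma 19 and edgeR without a filter 15. The shares of all genes were 28.3%, 26.7% and 16.7%. For PKI against Gnas-eKO, where edgeR called 7, these fits called 10, 10 and 6, beside 13.8%, 9.89% and 5.49% of all genes. Over all genes, Gnas-eKO gave 267 calls, beside 1535 with the Wald test, 135 with the block, 2648 in the joint fit and 0 to 1910 with 1 library left out. PKI against Gnas-eKO gave 1565, beside 2389 (Wald) and 925 (block), and Gnas-eKO against SmoM2 30, beside 212 (Wald) and 48 (limma). The cause was not tested.

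Signs changed for values that were not called, among them Ccl22 in Gnas-eKO (0.72 in the edgeR fit per model) and Cxcr2 in SmoM2 (-0.52). In SmoM2, Ccl25 was 0.07 with the block and Ccr1 -0.01 with limma. Ccr6 in Gnas-eKO was 0.00 with the Wald test and the joint fit, -0.01 without a filter and -0.03 with limma. With 1 library left out, the SmoM2 ranges were -0.48 to 0.43 for Ccl1, -0.22 to 0.35 for Ccl22, -0.08 to 0.07 for Ccl25, -0.56 to 0.52 for Ccr1, -0.59 to 0.24 for Ccr2 and -0.89 to 0.02 for Cxcr2. In Gnas-eKO they were -0.34 to 1.13 for Ccl22, -0.13 to 0.35 for Ccr2 and -0.59 to 0.41 for Ccr6.

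Replicate numbers are not stated to pair libraries, and same-numbered libraries deviated together with correlations of -0.127 to -0.0869 in SmoM2, 0.041 to 0.184 in Gnas-eKO and -0.0657 to 0.283 in PKI. With the replicate block, 9, 0 and 33 chemokine genes were called in SmoM2, Gnas-eKO and PKI, beside 20.9%, 0.823% and 36.5% of all genes, and 19 and 8 for PKI against SmoM2 and Gnas-eKO, beside 22.9% and 5.36%. The block added the calls of Cxcl14 and Ackr3 in PKI (adjusted p = 0.000165 and 0.014) and Ccl27a in SmoM2 (0.0292). It lost those of Ccl6, Ccr6 and Cxcl5 for PKI against SmoM2 (0.113, 0.0816 and 0.0546), Cxcl5 for PKI against Gnas-eKO (0.0676) and Ccl28 for Gnas-eKO against SmoM2 (0.0839). Of the other 18 genes it called Ccl7, Ccl8 and Ccr4 in PKI. The low counts of most receptors and of Cxcl2, Cxcl3 and Cxcl5 limit their precision.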

Other observations

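Of 5 melanocyte markers, a skin cell type not yet described, 4 fell in PKI and 2 (Mlana and Tyr) in SmoM2, and 0 were called in Gnas-eKO by edgeR. Over all genes tested, 15.8% fell in PKI and 13.5% in SmoM2, and 1.63% were called in Gnas-eKO. The melanocyte marker sum was 149 to 198 CPM in PKI Con and 71.8 to 116 CPM in PKI BCC. In SmoM2 the sums overlapped, at 115 to 205 CPM in Con and 110 to 161 CPM in BCC.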
